A study of Mus musculus with 9 samples.

Results

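The 38 genes described here encode extracellular matrix proteins, the enzymes and inhibitors that remodel them, the TGF-beta ligands and receptors that control them, and the transcription factors and cytoskeletal proteins of the epithelial to mesenchymal transition. They were chosen by symbol, and all 38 were found among the 21878 symbols of the deposited count table. Their values come from WT-GFP cells, which are primary hepatocytes of wild-type C57BL/6 mice that were turned into liver progenitors, given a GFP lentivirus, and matured again for 3 weeks. The progenitor medium held HGF and EGF, the ROCK inhibitor Y-27632, the GSK3 inhibitor CHIR99021, S1P, LPA and A8301. The maturation medium held oncostatin M, DAPT and SB431542. A8301 and SB431542 inhibit the kinase of the TGF-beta type I receptor, so every cell of the series had met such an inhibitor. All cells then received CuCl2 for 24 hours, at 100 µM per the labels' protocols and 100 mM per their treatment field. The series has 9 samples in 3 groups of 3, the other two groups being cells of ATP7B-/- mice with an ATP7B lentivirus (KO-ATP7B) or a GFP lentivirus (KO-GFP). One protocol sentence of the labels calls the wild-type cells WT-ATP7B-Heps, whereas titles and design text give GFP. Only WT-GFP replicates 1 and 2 could be tied to a count column, so no genotype or vector was compared and cells without copper were not analysed here.

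The extracellular matrix has a basement membrane layer of laminins, type IV collagen and proteoglycans under epithelia, and an interstitial layer of fibrillar collagens and fibronectin. In the liver, fibrillar collagen is made mainly by stellate cells and portal fibroblasts once they become myofibroblasts, while hepatocytes secrete fibronectin. In the epithelial to mesenchymal transition, TGF-beta signalling and factors of the Snail, ZEB and Twist families lower E-cadherin and raise vimentin, N-cadherin and matrix genes. Hepatocytes in culture are known to take on some of these features as they flatten and lose liver functions.

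The libraries held 18532457 counts in replicate 1 and 17821682 in replicate 2. No count allows up to 3 counts, or 0.162 and 0.168 CPM, which are counts scaled to the library total. Hepatocyte genes were present, with 8 of 12 markers at 10 FPKM or more. The urea cycle markers Cps1 and Ass1 were lower, at 1.21 ± 0.00146 and 1.28 ± 0.179 FPKM (SD, n = 2). So were Cyp2e1 at 2.26 ± 0.264 FPKM and Tat at 0.878 ± 0.107 FPKM. FPKM, the read count divided by gene length and library total, is the scale for all levels below, and it allows levels of different genes to be compared. Whether replicates were separate mice or separate cultures is not stated in the labels, so a p-value here measures only the difference between these libraries, which may be technical.

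The cells expressed a basement membrane program together with fibronectin, vimentin and N-cadherin, while the fibrillar collagens and the myofibroblast genes of the set were at or near 0. Of the 38 genes, 18 reached 10 FPKM, 5 lay between 1 and 10 FPKM and 15 did not reach 1 FPKM. Over all 21878 symbols, 27.1% reached 10 FPKM and 51.2% were below 1 FPKM. The median of the 38 genes was 4.64 FPKM, against 0.782 FPKM over all symbols. Nothing lay between Tagln at 0.541 FPKM and Lamb1 at 2.30 FPKM, so the division into expressed and nearly silent genes did not turn on the exact limit of 1 FPKM. Their summed counts made up 1.03% of replicate 1 and 0.979% of replicate 2, with Wilson limits at 95% confidence of 1.02 to 1.03% and 0.975 to 0.984%. Of these counts Fn1 gave 35.6% in each library. In bulk RNA a few cells with much RNA of a gene and many cells with little cannot be told apart.

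**Figure D1:**
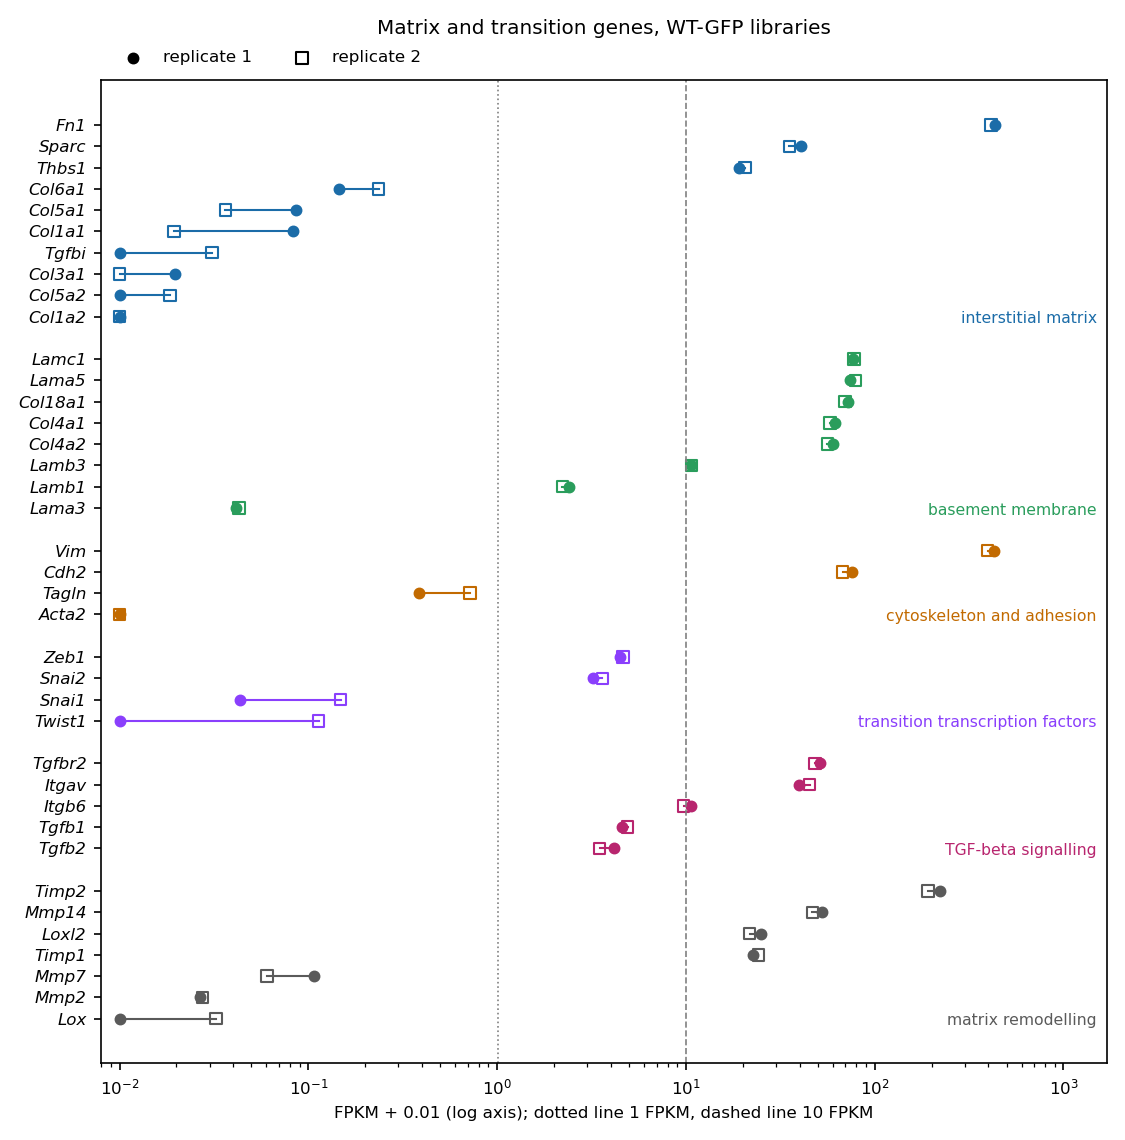
FPKM (with 0.01 added, log axis) of the 38 genes in WT-GFP replicate 1 (filled circles) and replicate 2 (open squares), in the 6 role groups and ordered by mean within each. The dotted and dashed lines mark 1 and 10 FPKM, and 15 genes lie left of the dotted line in both libraries.

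Sequences upstream of the annotated start are shown for 4 genes of the set, some expressed and some nearly silent. The nearly silent ones shown include a start rich in CG dinucleotides and a start without any. Neither expressed gene shown has a start poor in them. Expressed genes with CG-poor starts, such as Lamb3 and Sparc, are not printed. Each line holds the 250 bases before the RefSeq start (GRCm38.p6), 5′ to 3′ on the gene's strand, with every CG dinucleotide in capitals. Lama5 (chr2:180225860-180226109, minus strand) and Tgfbr2 (chr9:116175364-116175613, minus strand) were expressed, and Col5a1 (chr2:27886175-27886424, plus strand) and Col3a1 (chr1:45311288-45311537, plus strand) were nearly silent.
Lama5: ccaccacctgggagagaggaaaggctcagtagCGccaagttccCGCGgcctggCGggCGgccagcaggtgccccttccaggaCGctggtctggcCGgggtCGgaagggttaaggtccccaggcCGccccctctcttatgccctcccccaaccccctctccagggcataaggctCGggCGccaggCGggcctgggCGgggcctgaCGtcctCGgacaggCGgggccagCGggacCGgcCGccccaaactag
Tgfbr2: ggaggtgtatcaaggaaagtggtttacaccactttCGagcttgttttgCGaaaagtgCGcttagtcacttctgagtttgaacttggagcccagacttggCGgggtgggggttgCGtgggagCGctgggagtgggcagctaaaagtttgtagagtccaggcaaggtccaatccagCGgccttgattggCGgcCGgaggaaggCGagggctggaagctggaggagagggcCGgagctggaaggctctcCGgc
Col5a1: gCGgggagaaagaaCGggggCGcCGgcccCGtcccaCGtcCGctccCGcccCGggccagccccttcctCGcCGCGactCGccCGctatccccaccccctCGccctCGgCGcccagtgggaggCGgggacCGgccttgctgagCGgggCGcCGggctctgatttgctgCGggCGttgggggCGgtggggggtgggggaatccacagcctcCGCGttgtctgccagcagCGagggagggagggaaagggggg
Col3a1: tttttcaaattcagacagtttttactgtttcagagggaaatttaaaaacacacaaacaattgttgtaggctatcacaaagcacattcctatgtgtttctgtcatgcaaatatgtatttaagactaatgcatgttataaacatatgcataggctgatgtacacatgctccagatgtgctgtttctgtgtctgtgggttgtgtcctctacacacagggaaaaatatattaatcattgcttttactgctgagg
The sequence of Lama5 holds 19 CG dinucleotides, that of Tgfbr2 12, that of Col5a1 28 and that of Col3a1 0. The most CG-rich of these belongs to a gene with 12 and 4 counts.

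Among the interstitial matrix genes, 3 of 10 reached 10 FPKM and 7 were below 1 FPKM. Fn1 encodes fibronectin, which links collagen to cell surface integrins (ENSMUSG00000026193.15, chromosome 1, 71585520 to 71653200, minus strand, GRCm38). It was at 434 FPKM in replicate 1 and 414 FPKM in replicate 2, the highest of the 38 genes and rank 118 of all symbols. Sparc, a collagen-binding glycoprotein (chromosome 11, 55394500 to 55423183, minus strand), was at 40.9 and 35.3 FPKM. Thbs1, thrombospondin 1, which can activate latent TGF-beta (chromosome 2, 118111876 to 118127133, plus strand), was at 19.2 and 20.5 FPKM. For each of these the libraries differed far less than the genes did among themselves.

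The fibrillar collagens of the set were almost undetected. Col1a2, the second chain of type I collagen (chromosome 6, 4504814 to 4541544, plus strand), had no counts in either library. Its partner Col1a1 (chromosome 11, 94936224 to 94953042, plus strand) had 8 counts in replicate 1 and 1 in replicate 2. Type III collagen, Col3a1, had 1 and 0 counts. Of the type V chains, which regulate fibril width, Col5a1 had 12 and 4 counts and Col5a2 had 0 and 1. Col6a1, a chain of the microfibrillar type VI collagen, had 10 and 16 counts, or 0.136 and 0.226 FPKM, and Tgfbi, an adhesion protein named for its induction by TGF-beta, had 0 and 1. The limits of 0.199 and 0.207 CPM given above for a gene without counts compare with 3657 and 3487 CPM for Fn1. Such limits and all intervals here cover counting error only and no other variation between libraries. The reads carry no molecular identifiers, so copies of the same molecule cannot be told apart and the intervals may be too narrow.

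In the basement membrane group 6 of 8 genes reached 10 FPKM, and the group's median of 59.1 FPKM was the highest of the 6 role groups. Type IV collagen forms the network of basement membranes from trimers, most widely of the chains of Col4a1 and Col4a2. Col4a1 (ENSMUSG00000031502.11, chromosome 8, 11198423 to 11312826, minus strand) was at 61.9 and 58.1 FPKM. Col4a2 (ENSMUSG00000031503.13, chromosome 8, 11312805 to 11449287, plus strand) was at 60.0 and 56.2 FPKM. Both were slightly lower in replicate 2, and per length their ratio was 1.03 in each library. The trimer itself contains the chains in unequal number, so equal RNA is not the protein's composition. These genes lie head to head with annotated starts 21 bases apart, and their first exons share 22 bases on opposite strands. How the counting treated strand is not stated in the labels, so reads from those 22 bases cannot be assigned to one of them. Of the other type IV chains, Col4a5 was at 17.1 ± 0.378 FPKM (SD, n = 2), and Col4a3, Col4a4 and Col4a6 were below 1 FPKM.

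Laminins are trimers of an alpha, a beta and a gamma chain, and 1 alpha chain stood out here. Lama5, the alpha-5 chain that many adult epithelia carry (ENSMUSG00000015647.9, chromosome 2, 180176373 to 180225859, minus strand), was at 74.1 and 78.9 FPKM. Lamc1, the common gamma chain (ENSMUSG00000026478.14, chromosome 1, 153218922 to 153332786, minus strand), was at 76.8 and 77.6 FPKM. The levels of Lama5 and Lamc1 overlapped between libraries, and their ratio was 0.991 ± 0.0370 (SD, n = 2). Lamb1, the beta-1 chain (chromosome 12, 31265234 to 31329644, plus strand), was at only 2.40 and 2.21 FPKM, or 1.39 FPKM on average with its exon length in GENCODE. The beta chain at a matching level was Lamb2, which is not among the 38 genes, at 72.8 ± 0.299 FPKM, 31.7 ± 2.03 times Lamb1. With GENCODE lengths for both the ratio was 48.5. Lama3 and Lamb3 encode chains that join in the laminin of epithelial hemidesmosomes. Lamb3 (chromosome 1, 193207699 to 193343878, plus strand) was at 10.6 and 10.7 FPKM, or 6.92 FPKM with the GENCODE length. Lama3, in contrast, had 7 counts in each library, or 0.0316 and 0.0329 FPKM. None of Lama1, Lama2, Lama3 and Lama4 reached 1 FPKM, so Lama5 was the only one of the 5 laminin alpha genes measured here that did.

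Col18a1 encodes a basement membrane collagen whose end fragment is endostatin (chromosome 10, 77052178 to 77166548, minus strand), and it was at 72.3 and 69.6 FPKM. Other components of this layer, named by rank in a list of 11 laminin, nidogen and proteoglycan genes, were present alongside. The proteoglycan gene Agrn (agrin) was at 117 ± 2.32 FPKM, and it led the list before Lamb2. In that list 5 of 11 genes reached 10 FPKM, while 2 of 15 other collagen genes did. The latter were Col4a5 and the fibrillar collagen gene Col27a1, at 10.2 ± 0.00495 FPKM.

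**Figure D2:**
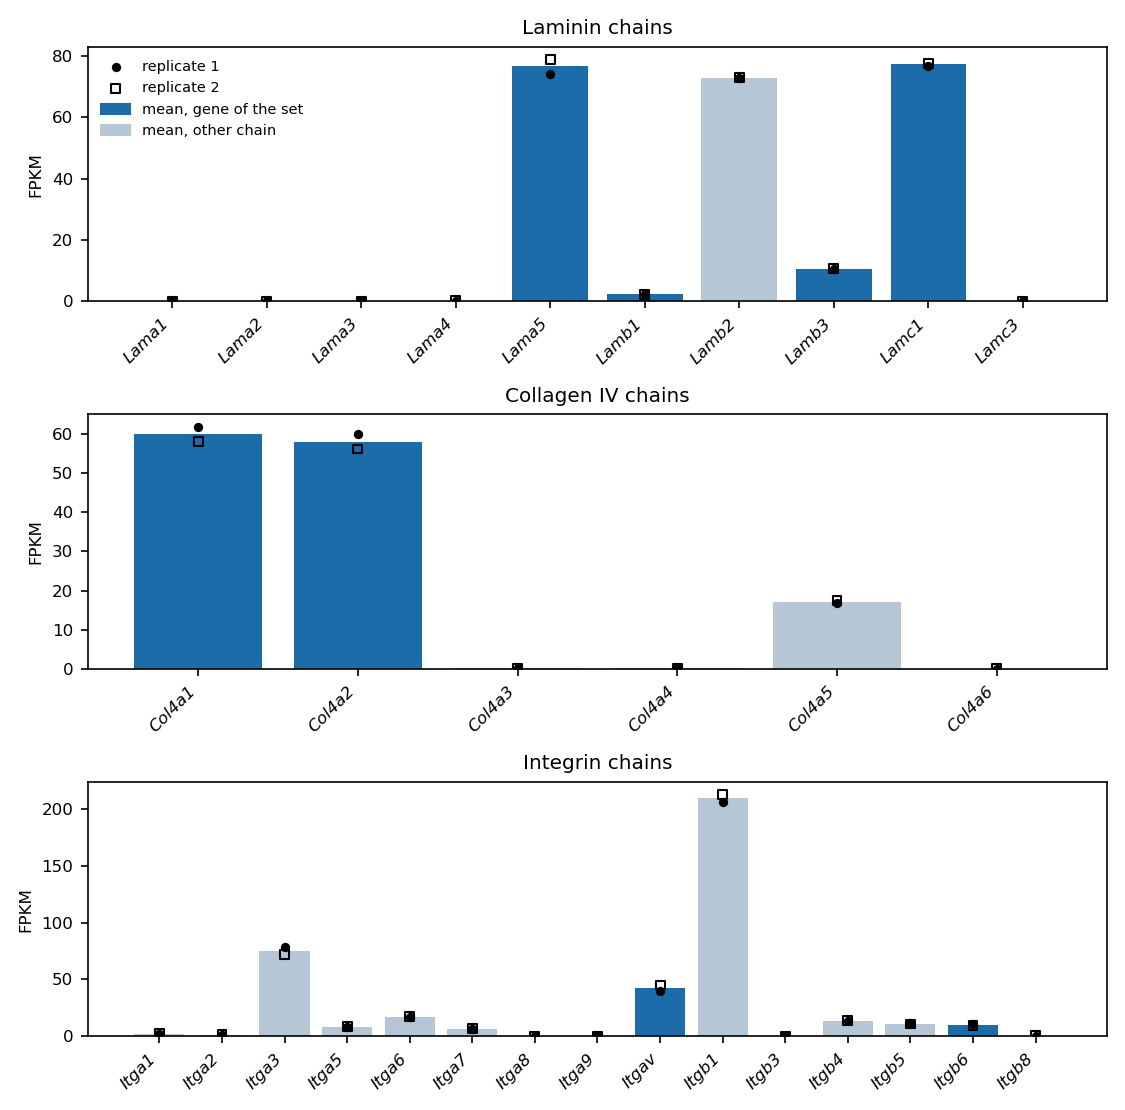
Mean FPKM (bars) with replicate 1 (circles) and replicate 2 (squares) for 10 laminin chain genes, all type IV collagen chain genes and 15 integrin chain genes, dark bars for genes of the set of 38 and pale bars for their partners. Lama5 is the only laminin alpha gene visibly above 0, Col4a1 and Col4a2 stand level, and Itgb1 at 209 FPKM exceeds all other integrin genes drawn.

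The cytoskeletal and adhesion genes split into 2 expressed and 2 silent ones. Vim, vimentin, the intermediate filament protein of mesenchymal cells (ENSMUSG00000026728.9, chromosome 2, 13573927 to 13582826, plus strand), was at 426 and 396 FPKM, level with Fn1 within the spread of the libraries. With the exon length from GENCODE it came to 159 FPKM, which is 2.59 times less, and the ratio of Vim to Fn1 fell from 0.970 ± 0.0176 to 0.520. Cdh2, N-cadherin, which hepatocytes normally carry beside E-cadherin, was at 76.2 and 67.5 FPKM. E-cadherin itself, Cdh1, was at 231 ± 6.75 FPKM, 3.21 ± 0.181 times Cdh2. The keratin genes Krt18 and Krt8 of simple epithelia were at 1157 ± 5.83 and 1102 ± 27.2 FPKM, above Vim in both libraries. These are high members of a list of 22 epithelial genes, of which 12 reached 10 FPKM and 8 did not reach 1 FPKM. The low ones were the claudin genes Cldn1, Cldn3, Cldn4 and Cldn7 of tight junctions and the splicing factor gene Esrp1. The epithelial transcription factor genes Grhl2, Ovol1 and Ovol2 were also among them. Related genes of the same list were expressed. The tight junction genes Tjp1 and Ocln were at 75.4 ± 3.78 and 12.7 ± 0.161 FPKM, and Esrp2 was at 19.6 ± 1.04 FPKM. Epcam, an epithelial adhesion protein, was at 2.04 ± 0.887 FPKM. Acta2, smooth muscle actin, the usual mark of myofibroblasts (chromosome 19, 34241090 to 34255590, minus strand), had no counts in either library. Reads that it shares with other actin genes may not have been counted, since the labels do not state what was done with them. Tagln, a smooth muscle actin-binding protein (chromosome 9, 45929619 to 45936058, minus strand), had 11 and 20 counts, or 0.374 and 0.708 FPKM. Of its merged exons 62.4% overlap an annotated antisense RNA, so even these few counts are uncertain.

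The transition transcription factors were low throughout, and none of the 4 reached 10 FPKM. Zeb1, a repressor of E-cadherin, was at 4.45 and 4.63 FPKM from 660 and 661 counts. Snai2 (Slug; chromosome 16, 14705852 to 14709385, plus strand) was at 3.22 and 3.59 FPKM from 120 and 129 counts. Snai1 (Snail; chromosome 2, 167538195 to 167542814, plus strand) had 1 and 4 counts, and Twist1 (chromosome 12, 33957671 to 33959829, plus strand) had 0 and 3 counts. The family members outside the set were no higher than Zeb1: Zeb2 was at 2.33 ± 0.294 FPKM and Twist2 and Snai3 were below 1 FPKM. Among 16 further genes often used to follow the transition 6 reached 10 FPKM and 7 did not reach 1 FPKM. Prrx1 and Cnn1 had no counts. The highest were S100a6, a calcium-binding protein, at 3731 ± 47.2 FPKM and the actin crosslinker Actn1 at 150 ± 2.10 FPKM. The receptor tyrosine kinase gene Axl came next at 138 ± 0.750 FPKM.

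All 5 TGF-beta signalling genes were above 1 FPKM, with the receptor chains above the ligands. Tgfbr2, the type II receptor that binds the ligand (ENSMUSG00000032440.13, chromosome 9, 116084293 to 116175360, minus strand), was at 51.5 and 48.3 FPKM, or 29.2 FPKM with the GENCODE exon length. Tgfb1 (chromosome 7, 25687002 to 25705077, plus strand) was at 4.59 and 4.90 FPKM, and 2.05 FPKM with the GENCODE length. Tgfb2 (chromosome 1, 186622792 to 186705989, minus strand) was at 4.17 and 3.48 FPKM. The third ligand gene, Tgfb3, lies outside the set and was higher than either, at 13.2 and 10.9 FPKM. Itgav and Itgb6 encode the chains of integrin alpha-v beta-6, an epithelial receptor that releases active TGF-beta from its latent complex. Itgav (chromosome 2, 83724397 to 83806916, plus strand) was at 39.9 and 45.2 FPKM, and Itgb6 (chromosome 2, 60598292 to 60722643, minus strand) at 10.6 and 9.74 FPKM. The partner chain Itgb5 was at 11.2 ± 0.519 FPKM and Itgb1, which pairs with many alpha chains, at 209 ± 5.22 FPKM. Itgb3 and Itgb8, the remaining partners of Itgav measured, were below 1 FPKM.

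Further genes of the pathway spanned a wide range of levels. A list of 21 had 10 genes at 10 FPKM or more and 3 that did not reach 1 FPKM. Leading it were the Id genes, inhibitors of helix-loop-helix factors that BMP signalling induces: Id2 at 421 ± 7.07 FPKM, Id1 at 126 ± 12.2 FPKM and Id3 at 60.6 ± 4.57 FPKM. The type I receptor gene Tgfbr1, whose product the medium's inhibitors act on, was at 18.5 ± 0.727 FPKM. In a list of 19 glycoprotein and small proteoglycan genes the highest were Spp1 (osteopontin) at 604 ± 27.9 FPKM, the fibulin gene Efemp1 at 382 ± 42.1 FPKM and Ctgf, a matricellular growth factor, at 252 ± 11.8 FPKM. In the same list Eln, Fbn1, Postn, Thbs2 and Lum had no counts.

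The matrix remodelling genes included 2 expressed inhibitors and 1 expressed membrane protease, while the gelatinase and matrilysin genes of the set were nearly silent. Timp2, an inhibitor of metalloproteinases that also helps MMP14 to activate pro-MMP2 (ENSMUSG00000017466.9, chromosome 11, 118301069 to 118355740, minus strand), was at 223 and 192 FPKM. That was behind only Fn1 and Vim among the 38 genes. With GENCODE lengths Timp2 was at 193 FPKM, above Vim at 159 FPKM. Timp1 (chromosome X, 20870166 to 20874735, plus strand) was at 22.6 and 24.2 FPKM. Mmp14, the membrane-bound collagenase MT1-MMP (chromosome 14, 54431612 to 54445364, plus strand), was at 52.4 and 46.8 FPKM, or 31.6 FPKM with the GENCODE length. Mmp2, the gelatinase it activates, had 1 count in each library, and Mmp7, matrilysin, had 2 and 1 counts. Loxl2, a lysyl oxidase that crosslinks type IV collagen (chromosome 14, 69609068 to 69695834, plus strand), was at 25.1 and 21.7 FPKM. Its relative Lox, which crosslinks fibrillar collagen, had 0 and 2 counts. Loxl4, outside the set, was at 23.8 ± 0.315 FPKM, level with Loxl2 within the spread of the libraries. With GENCODE lengths Loxl4 was at 30.7 FPKM and Loxl2 at 24.1 FPKM.

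Enzymes that fold and trim collagen were present although the fibrillar collagens of the set were not. In that list 9 of 12 genes reached 10 FPKM, led by P4hb (protein disulfide isomerase, a subunit of prolyl hydroxylase) at 430 ± 33.4 FPKM, Pcolce, an enhancer of procollagen trimming, at 61.3 ± 0.200 FPKM, and the collagen chaperone gene Serpinh1 at 40.7 ± 1.23 FPKM. Among 19 other proteases and inhibitors 7 reached 10 FPKM. Plaur, the urokinase receptor, was at 288 ± 12.6 FPKM and the sheddase gene Adam9 at 133 ± 5.04 FPKM.

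Markers of cells that could contribute matrix RNA were read from lists chosen with earlier results of these data known. Among 16 markers of stellate cells and fibroblasts, 14 did not reach 1 FPKM, and their summed level was 10.1 FPKM in replicate 1 and 9.66 FPKM in replicate 2. Pdgfrb, Lum, Postn and Cspg4 had no counts. The 2 above 1 FPKM were Pdpn, which mesothelial and other epithelial cells also carry, at 8.18 ± 0.345 FPKM, and Reln at 1.10 ± 0.173 FPKM. Endothelial markers were below 1 FPKM in 9 of 10 cases (summed level 3.07 and 4.002 FPKM), with Egfl7 at 2.53 ± 0.524 FPKM. Macrophage markers were below it in 8 of 10, the exceptions being Cd68 at 17.1 ± 3.34 FPKM and Csf1r at 2.15 ± 0.249 FPKM. Mesothelial markers summed to 1587 and 1501 FPKM, mostly from Msln (mesothelin) at 1159 ± 20.7 FPKM and Krt19 at 344 ± 36.5 FPKM, a biliary keratin as well. Upk1b was at 28.1 ± 2.22 FPKM, Upk3b at 3.06 ± 0.393 FPKM and Gpm6a at 1.80 ± 0.487 FPKM, Wt1 was below 1 FPKM and Lrrn4 had no counts. How much of the expressed matrix RNA came from Msln-expressing cells was not tested.

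**Figure D3:**
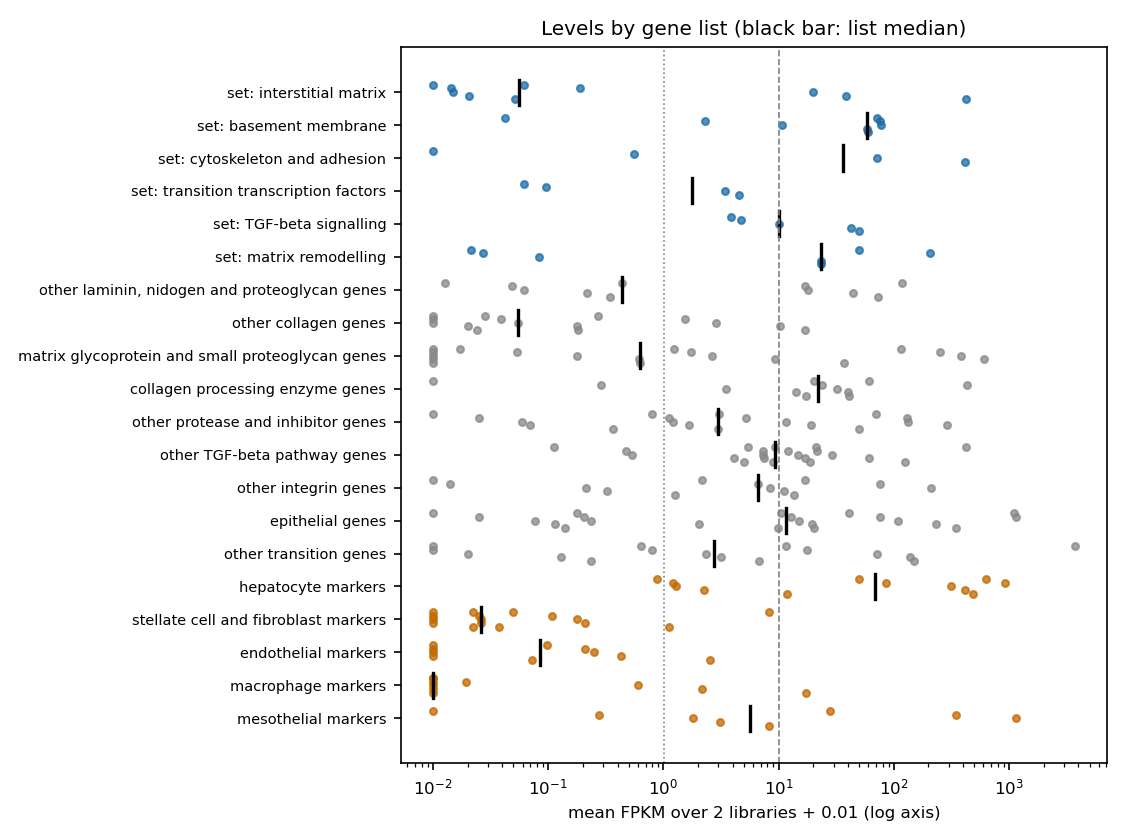
Mean FPKM over the 2 libraries (with 0.01 added, log axis) of every gene in the 6 role groups of the set (blue), 9 lists of related genes (grey) and 5 marker lists (orange), with a black bar at each list's median. The basement membrane group has its median at 59.1 FPKM, whereas the stellate cell and fibroblast markers cluster below 1 FPKM.

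Between the libraries the expressed genes of the set differed by small amounts, and most of those that passed the test below were lower in replicate 2. Each gene's counts were compared by a two-sided exact binomial test with the totals held fixed. Genes averaging 10 counts or more were tested, 12302 in all, and 25 of the 38 genes were tested. At an adjusted p under 0.05, 11 were lower and 2 higher in replicate 2. Over all genes 6.38% were lower and 8.38% higher, 14.8% in all, or 785 and 1031 genes. That split moved to 918 lower and 888 higher with TMM scaling and to 1002 and 799 with DESeq2 size factors, while the same 13 genes of the set passed under both. The test responds to any difference beyond counting error, and high counts make small differences pass. Among genes with 1000 to 10000 counts it called 24.7%, and 7 of 8 genes of the set. From 10000 counts it called 67.0%, and 6 of 7 genes of the set. Scaled counts were lower in replicate 2 for 5 of 7 genes of the set from 10000 counts, against 62.3% of all genes there. For 1000 to 10000 counts they were lower in 6 of 8, against 45.6%. For 100 to 1000 counts it was 3 of 8, against 46.9%, and for 10 to 100 counts 0 of 2, against 48.8%. An alternative was edgeR's exact test at the common dispersion of the 2 libraries, a coefficient of variation of 5.62%. With it 0 of the 25 passed after adjustment and 0 at an unadjusted p under 0.05, against 79 (0.642%) and 684 of all genes tested. That dispersion came from the same 2 libraries and so includes the difference under test, and few calls could result.

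The largest differences that passed the binomial test were in the remodelling genes Timp2 and Loxl2 and the interstitial matrix gene Sparc. Timp2 had 14946 and 12389 counts, a log2 ratio of replicate 2 to replicate 1 of -0.21 (95% exact interval -0.25 to -0.18, adjusted p = 6.97e-32, exact binomial test). Sparc was also at -0.21 (-0.31 to -0.12, adjusted p = 0.000271, exact binomial test) and Loxl2 at -0.21 (-0.29 to -0.13, adjusted p = 2.58e-05, exact binomial test). These 3 lay below the middle 95% of genes of similar counts, which ran from -0.19 to 0.23 for 1000 to 10000 counts and from -0.21 to 0.20 above. No other gene of the set with a test left its own range. Cdh2 followed at -0.17 and Mmp14 at -0.16, and Itgav was the highest at 0.18, with Lama5 at 0.09. Fn1, Vim, Col4a1, Col4a2, Col18a1 and Tgfbr2 were lower by log2 ratios between -0.11 and -0.06, close to the SD of 0.10 to 0.11 over genes of such counts. Among the 12 tested genes that did not pass, Tgfb2 had a log2 ratio of -0.26 (-0.47 to -0.05, adjusted p = 0.0762, exact binomial test), and Lamc1 had 0.01 (-0.02 to 0.05). Zeb1 and Snai2 were not distinguishable between the libraries at 0.06 (-0.10 to 0.22) and 0.16 (-0.21 to 0.53). Of the hepatocyte markers 6 of 12 were called lower and 0 higher in replicate 2, against 6.38% and 8.38% of all genes tested. Those 6 had from 1000 to 10000 counts, where 24.7% of all genes were called, or more, where 67.0% were. Whether the difference in hepatocyte markers bears on the genes of the set was not tested.

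**Figure D4:**
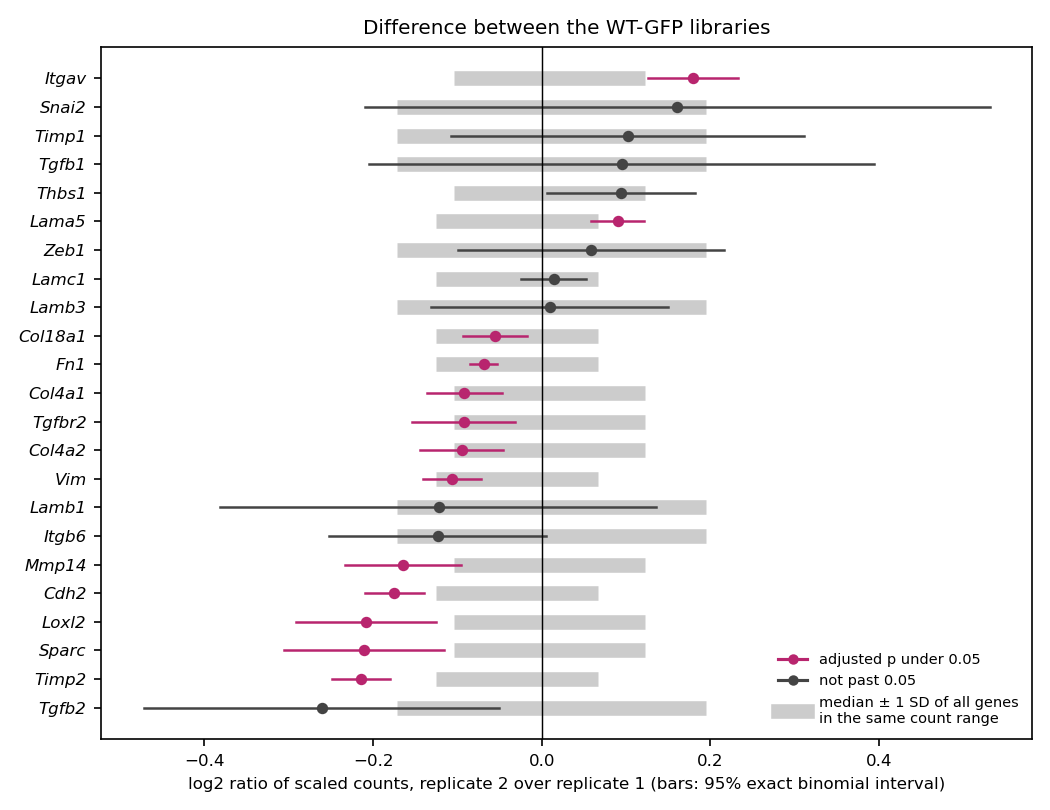
Log2 ratio of scaled counts, replicate 2 over replicate 1, for the 23 genes of the set averaging 100 counts or more, with 95% exact binomial intervals. Pink points passed an adjusted p of 0.05, grey bars show the median ± 1 SD of all genes in the same range of counts, and Timp2, Sparc and Loxl2 are the lowest of the pink points, left of their bars.

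Start windows with few and with many CG dinucleotides occurred among both expressed and nearly silent genes of the set. A RefSeq window of 300 bases, from 250 before to 50 after the start, was used for 25 of the 38 genes, and where a gene had 2 windows the one nearer the gene's 5′ end in GENCODE was taken. Windows of the 13 genes at 10 FPKM or more held a median of 15 CG dinucleotides, from 2 for Lamb3 to 37 for Col4a1. Windows of the 9 genes below 1 FPKM held a median of 13, from 0 for Col3a1 to 34 for Snai1 and Col5a1. Over all symbols the medians were 23 for expressed genes (10 FPKM or higher) and 4 for those under 1 FPKM. Of the genes whose sequences are printed above, Col5a1 has a window of 300 bases above the first of these medians, and Col3a1 one under the second. Both genes were nearly silent. The E-box CACCTG, or CAGGTG on the other strand, is a sequence to which ZEB and Snail factors bind. It was in 3 of the 13 windows of expressed genes (Timp2, Lama5 and Sparc), or 23.1%. Of the 9 windows of silent genes 1 held it (Snai1), or 11.1%. The unused windows of Lamb3, Itgb6 and Mmp7 also held it, so these shares depend on the choice of window. Over all symbols with a window the shares were 15.8% at 10 FPKM or higher and 22.1% under 1 FPKM. Of all 32851 windows 20.2% held it. The few windows of the set were not tested against these shares. A match is a stretch of letters and not evidence of binding.

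**Figure D5:**
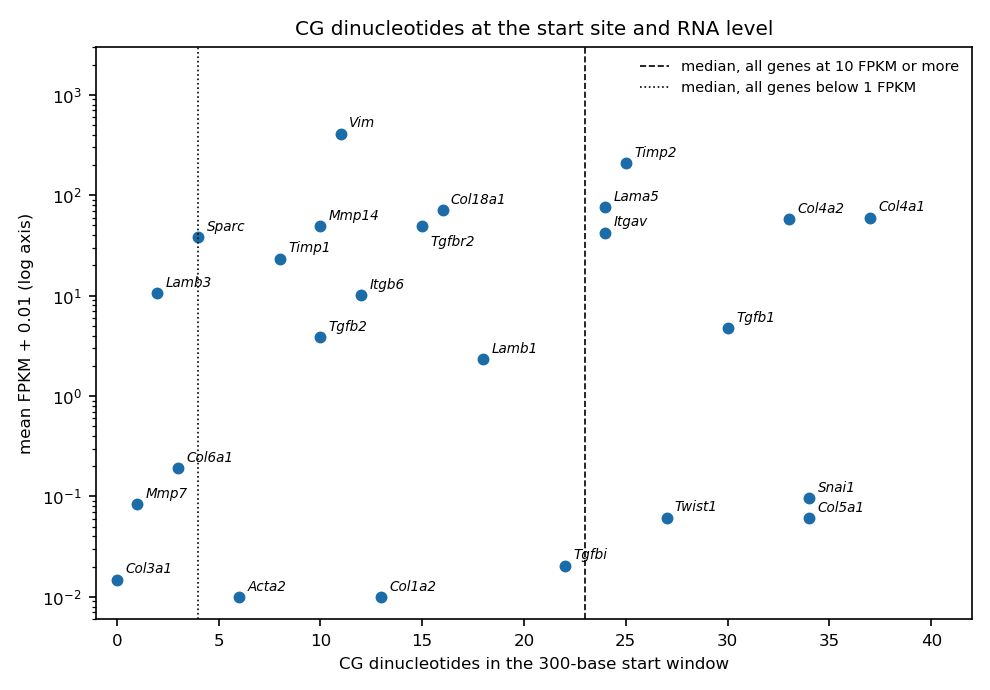
Number of CG dinucleotides in the 300-base start window (horizontal) against mean FPKM with 0.01 added (vertical, log axis) for 25 genes of the set. Dashed and dotted lines give the medians of all genes, 23 for those with at least 10 FPKM and 4 for those under 1 FPKM, and genes of the set occur on both sides of these lines at high and at low levels.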

How the data were processed

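Per the file headers, the deposited values are raw counts by gene symbol and, for WT-GFP replicates 1 and 2, FPKM. Reads were aligned with HISAT2 2.2.1.0, per the submitters' processing notes, which name mm10 and hg38 without a role. The counting tool, its annotation and its strand setting are not stated in these sources. Of the count columns, 7 carry a number that no label ties to a sample and were not used. Gene lengths implied by counts, totals and FPKM were whole bases within 0.01 bp for 100% of 15545 genes with a count, so the FPKM are the same counts rescaled. Positions and exon lengths are from GENCODE M21 (20624 symbols matched) and start windows from RefSeq on GRCm38.p6.

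Counts were compared between the 2 libraries with a two-sided exact binomial test (SciPy 1.17.1) with Benjamini-Hochberg adjustment at 0.05. Log2 ratios have 0.5 added to each count. Alternatives used edgeR 4.0.16 and DESeq2 1.42.0. The test was checked on counts drawn with known differences. The genes and lists were chosen with earlier results of these data known. Genes of the set with at least 10 mean counts are given by library. Other genes were to be named only as the 3 highest of a list, as markers at 1 FPKM or more, or as laminin, collagen or integrin partners. Cdh1, Tgfb3, Tgfbr1, Zeb2, Twist2, Snai3, Loxl4, Wt1, Epcam, Esrp2, Tjp1, Ocln and Tat fall outside that rule. Also outside it are the epithelial genes that did not reach 1 FPKM and the listed genes without counts. All of these were chosen after their values were seen. Some listed genes are not reported here. Comparisons of the 3 groups, planned with edgeR's quasi-likelihood test, were not run.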

Additional observations from a re-analysis of the deposited data

How the results depend on the processing

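The median of the 38 genes was 38.1 FPKM over those with a mean of at least 10 counts and 3.57 FPKM with GENCODE exon lengths. Leaving out 1 replicate gave 4.52 to 4.77 FPKM, 17 to 18 genes at 10 FPKM or more and 15 below 1 FPKM. With GENCODE lengths 16 genes reached 10 FPKM and 15 were below 1 FPKM, and the levels of Vim, Tgfb1, Tgfbr2, Lamb1, Mmp14 and Lamb3 moved by more than 1.5 times (Lamb1 to 1.39, Mmp14 to 31.6 and Lamb3 to 6.92 FPKM). The 11 lower and 2 higher calls kept their numbers with TMM factors, DESeq2 size factors and no filter on low counts. With edgeR's exact test at a common dispersion there were 0 calls in the set (0 lower, 0 higher; 0 at an unadjusted p under 0.05), against 13 by the binomial test (15 unadjusted), and 79 over all genes (18 lower, 61 higher; 684 unadjusted). That test counts the difference between the libraries as part of their spread. It was run over all genes after the data had been seen. Of the 25 log2 ratios 23 kept their direction under these settings and with a pseudocount of 1. The exceptions, neither past the threshold under any of them, were Lamb3 (0.0096, and -0.0011 with TMM factors and -0.0075 with DESeq2 size factors) and Lamc1 (0.01, and -0.0029 with DESeq2 size factors). The depth limits statements on genes with few counts, where a difference between the libraries was not detectable. No paired analysis was possible because the usable count columns belong to a single group, WT-GFP. For the same reason the comparisons between groups, with or without the replicate number, were not run, nor was the binomial test with 1 replicate left out.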
